A study of Mus musculus with 6 samples.

Results

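The genes examined here are those of the spliceosome, the machine that removes introns from newly made messenger RNA. They were taken as the rows of a liver gene table whose KEGG annotation names the spliceosome pathway, leaving out 4 rows for heat shock proteins (symbols starting with Hsp). This gave 159 of the 28880 genes in the table, of which 131 had enough counts to be tested, among 16717 genes tested in all. The members were sorted by known role into 60 small nuclear ribonucleoprotein (snRNP) protein genes, 11 SR protein genes, 9 heterogeneous nuclear ribonucleoprotein (hnRNP) genes and 79 others.

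The livers came from male wild-type C57BL/6J mice aged 6 to 8 weeks, 3 in each of 2 groups, and every library carries the label batch 1. The 3 ethanol mice were fasted for 12 h and then dosed once by mouth with ethanol (50%, 6 g/kg). Their livers were collected after 24 h. The 3 control mice received no ethanol. The sources used here do not say whether control mice were also fasted, so ethanol and fasting cannot be told apart. Each library is labelled with its own mouse. The comparison asks how the expression of the splicing machinery differed between ethanol-exposed and control liver.

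Splicing is carried out by 5 snRNPs, each built from a small nuclear RNA (snRNA) and proteins. U1 binds the 5′ splice site by base pairing, U2 binds the branch site near the 3′ end of the intron with the help of the U2AF and SF3 proteins, and the U4/U6.U5 tri-snRNP then joins and is rearranged into the active enzyme. SR proteins mostly promote the use of the exons they bind, and hnRNP proteins often oppose it, so the balance of these proteins is known to set which exons are kept. Many SR genes control their own level through an exon that, when kept, sends the transcript to decay. Hepatocytes make large amounts of a few secreted-protein transcripts, all of which pass through this machinery.

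The U1 and U2 snRNAs are shown because their base-pairing elements define the steps by which the protein genes are ordered here. The sequences are the GENCODE M21 transcripts (build GRCm38) of the same symbol, written as DNA, with the pairing element in capitals: bases 3 to 11 of U1 pair with the 5′ splice site, and bases 33 to 38 of U2 pair with the branch site.
Rnu1a1: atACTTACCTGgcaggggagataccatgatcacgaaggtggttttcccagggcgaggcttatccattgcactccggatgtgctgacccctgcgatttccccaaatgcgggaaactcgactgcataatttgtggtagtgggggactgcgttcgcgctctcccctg
Rnu2-10: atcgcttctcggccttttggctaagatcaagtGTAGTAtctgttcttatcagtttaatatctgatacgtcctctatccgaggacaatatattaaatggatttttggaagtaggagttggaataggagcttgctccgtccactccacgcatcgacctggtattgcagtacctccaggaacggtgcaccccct

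The 21 snRNA genes among the members, 107 to 191 bases long, could not be compared. They held 40 counts in all over the 6 libraries, no snRNA gene had more than 3 counts in a library, and 7 had none. All 21 matched a GENCODE M21 transcript, 3 by identifier and 18 by symbol. The U1 element ACTTACCTG was present in 7 of them, the U2 element GTAGTA in 5 and the U6 element ACAGAGA in 1. Counts this low give no level for the RNA part of the snRNPs, so the values below are for the protein genes only. Of the other 7 rows that were not tested, 4 are pseudogene rows with at most 9 counts in a library, and the others are Cdc5lrt8 (at most 11), Eif4a3l1 (at most 2) and Hnrnpa1l2-ps2 (at most 1).

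Libraries held 60514417 to 74210869 counts. The TMM factors, which scale libraries so that most genes do not differ, were 0.768 to 0.836 in ethanol libraries and 1.26 to 1.27 in control libraries. Levels are given as CPM, the counts scaled by TMM to a common library size, and differences as log2 fold changes of ethanol over control. With library size as the only scaling, the median over all genes tested moved from -0.04 to -0.71. A rise of a member is therefore a rise relative to most genes. Summed CPM of 8 hepatocyte markers was 138830 to 144910 in ethanol and 72283 to 83595 in control mice, and 7 of 8 rose, among them Alb, which encodes albumin. Erythroid markers rose in 4 of 5 cases (summed CPM 579 to 863 against 180 to 220). Neutrophil markers rose in 3 of the 3 tested, at low summed CPM (1.77 to 10.8 against 0.171 to 0.330). Of the Kupffer cell, sinusoidal endothelial, stellate, cholangiocyte, T cell and B cell markers, 0 of 6, 1 of 6, 1 of 6, 1 of 5, 0 of 2 and 0 of 4 tested rose, and 1, 2, 2, 0, 1 and 1 fell. The 5 nuclear RNAs listed summed to 199 to 324 CPM against 419 to 543, and Neat1 fell while Malat1 rose. The part of these markers in the results below was not tested. In bulk liver, fewer cells of a type and less RNA per cell cannot be told apart.

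Spliceosome genes changed in both directions. A gene is said to have risen or fallen where edgeR's quasi-likelihood test gave a p under 0.05 after Benjamini-Hochberg adjustment across the whole table. By this rule 24 of the 131 members rose (18.3%, against 21.5% of all genes tested) and 22 fell (16.8%, against 21.5%). Together 35.1% of members were called, against 43% of all genes. Both shares were below the background in this fit, and other fits moved them. With library size as the only scaling, 2 members rose and 84 fell (1.53% and 64.1%, against 7.39% and 48.3% of all genes). With limma on log2(FPKM + 1), a fit on the authors' library-scaled values, 1 rose and 82 fell of 122 tested (0.820% and 67.2%, against 8.88% and 56.7%). DESeq2 called 23 rises and 27 falls among 135 tested (18.0% and 20.2% of all genes). After removal of the length trend, 38 rose and 17 fell (29.0% and 13.0%, against 23.9% and 18.0%). Whether either share lies above or below the background thus depends on the fit. The count of rises was 12 without control replicate 2 (9.09%, against 14.7% of all genes) and 12 without control replicate 3 (9.16%, against 14.5%). The count of falls was 13 without control replicate 2 (9.85%, against 13.8%) and 37 without ethanol replicate 3 (28.03%, against 27.39%). The share of all genes that fell thus moved with that of the members. Differentially expressed genes (DEGs) are called genes with a log2 fold change beyond 1. Only Sf3b1 and U2af1 were DEGs upward (2 of 131, against 10.4% of all genes), and Sf3a1, Ppil1, Ncbp2, Lsm2, Srsf6, Aqr, Srsf1 and Cdc5l were DEGs downward (8 of 131, against 13.8%). Without ethanol replicate 3 these counts were 6 and 13 (4.55% and 9.85%, against 10.9% and 16.5% of all genes). Without ethanol replicate 1 the downward count was 5 (3.82%, against 11.9%). With library size alone 0 were DEGs upward and 37 downward (28.2%, against 5.06% and 32.2% of all genes), and with limma on log2(FPKM + 1) 0 and 18 (14.8%, against 3.52% and 14.8%).

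The 60 snRNP protein genes held 11 rises and 10 falls (18.3% and 16.7%, against 21.5% each over all genes), with a median log2 fold change of 0.03. The 11 SR genes held 2 rises and 3 falls with a median of -0.26, and the 8 tested hnRNP genes held 0 rises and 4 falls with a median of -0.42. All genes tested had a median of -0.04. Within the snRNP genes the medians were 0.22 for the Sm and LSm ring (14 genes), 0.21 for U1 (8 genes), 0.17 for U2 (23 genes) and -0.49 for the tri-snRNP (15 genes). Relative to the median of all genes the tri-snRNP lay at -0.44, U2 at 0.21 and the ring at 0.26. With limma on log2(FPKM + 1) these were -0.35, 0.096 and 0.071, and U2 was at 0.118 without control replicate 3. The median over all snRNP genes turned from 0.075 to -0.045 with limma, and without ethanol replicate 3 it was -0.0025. The SR median, at -0.22 relative to all genes, was -0.026 without ethanol replicate 2 and -0.38 with limma, and the hnRNP median, at -0.38, was -0.57 with limma.

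The direction of the rises depends on the scaling. With library size as the only scaling, or with limma on log2(FPKM + 1), 14 of the 24 rises lay below 0 and 10 stayed above it. Those that stayed above it were Sf3b1, U2af1, Rbm17, Lsm8, Srsf4, Wbp11, Lsm4, Rp9, Magoh and Xab2. All 24 stayed above the median of all genes in both fits, and all 22 falls stayed below both 0 and that median. The call itself was kept under library size for Sf3b1 and U2af1 (2 of 24) and under limma for U2af1 only (1 of 24), and for 22 of 22 falls in both fits.

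**Figure D1:**
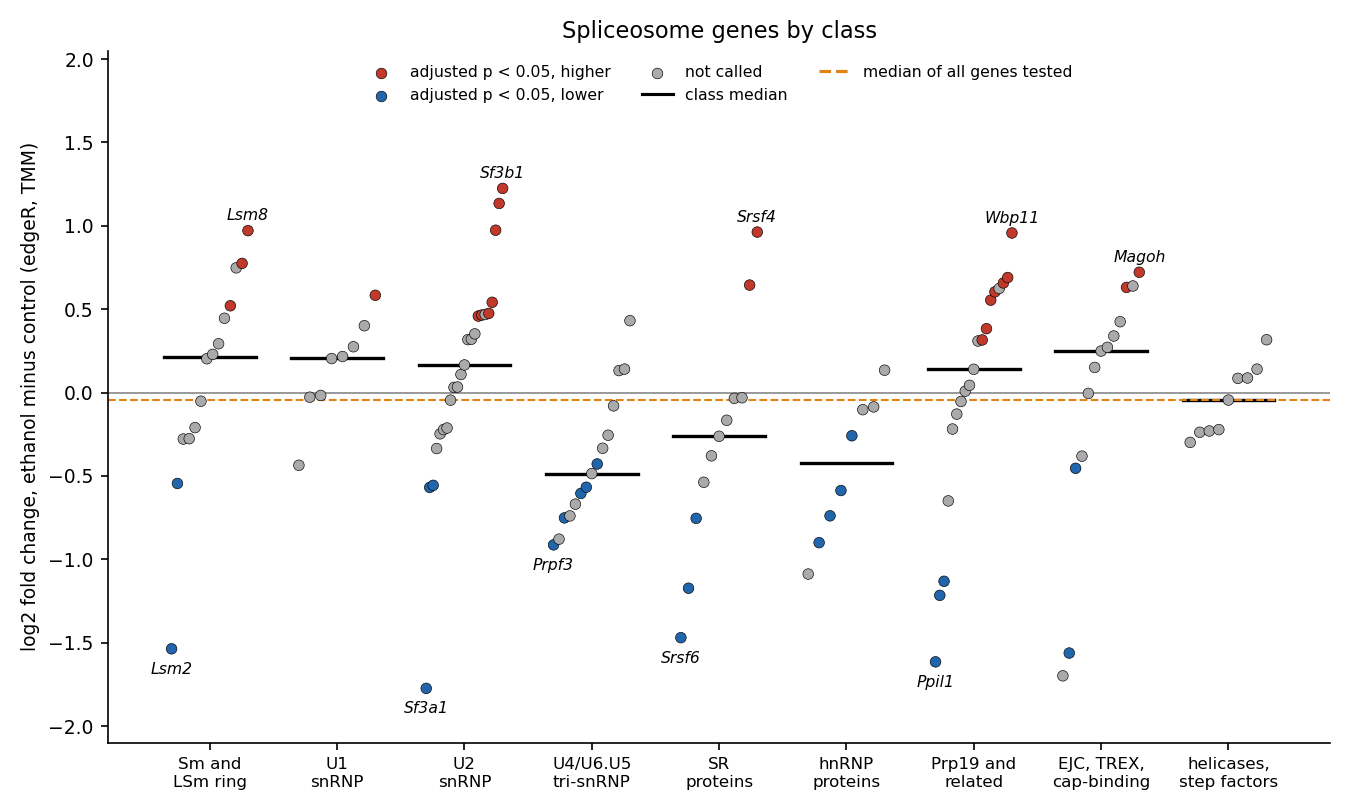
Each point is 1 tested member, placed by its log2 fold change of ethanol over control (edgeR, TMM scaling) on the vertical axis and by class on the horizontal axis, with red for rises, blue for falls, black bars for class medians and a dashed line for the median of all genes (-0.04). The tri-snRNP and hnRNP columns hold 0 rises, the U2 column spans -1.77 (Sf3a1) to 1.22 (Sf3b1), and 14 of the 24 red points fall below 0 with library size as the only scaling or with limma on log2(FPKM + 1).

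Positions are given as the deposited table has them. They match GENCODE M21 on GRCm38, the build that the labels name, for 2 of 131 tested members, so the build of the table is not settled. In the table U2af1 lies on chromosome 17 from 31866055 to 31877866, U2af2 on chromosome 7 from 5065142 to 5082937, Sf3b1 on chromosome 1 from 55024328 to 55066640 and Sf3a1 on chromosome 11 from 4110355 to 4129419. None of these 4 overlaps another row, while 48 of the 131 tested members do, 19 of them on the same strand. Whether counting used the strand is not given in the sources used here, so overlapping rows may share counts.

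U2 and its partners recognise the branch site. Of 23 U2 genes, 7 rose (30.4%) and 3 fell (13.0%), against 21.5% of all genes in each direction, while limma on log2(FPKM + 1) called 1 higher and 13 lower (8.88% and 56.7% of all genes). The other 13 were not called by edgeR, and the 2 subunits of the U2AF dimer moved in opposite directions. U2af1 encodes the small U2AF subunit, which reads the AG at the intron's 3′ end. Its level was 30.7, 30.9 and 30.2 CPM in control mice 1 to 3 and 69.9, 61.0 and 70.6 CPM in ethanol mice 1 to 3. Every ethanol mouse lay well above every control mouse. The rise was 1.13 on the log2 scale (SE 0.10, adjusted p = 0.000321), a fold of 2.20, and it was called in 15 of 15 alternative analyses. U2af2 encodes the large subunit, which binds the pyrimidine-rich tract beside that AG. Its level was 44.5, 40.9 and 41.7 CPM in control mice and 26.7, 27.7 and 31.3 CPM in ethanol mice. Here all ethanol mice lay below all control mice, and U2af2 fell by 0.57 (SE 0.11, adjusted p = 0.00523). The ratio of U2af1 to U2af2 counts within a library, which no scaling touches, was 0.690, 0.757 and 0.722 in control mice and 2.62, 2.20 and 2.25 in ethanol mice. This pair was chosen after its values were seen, so the ratio is a description. It was 3.26 times as high in the ethanol mean.

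The SF3 complexes, which hold U2 on the branch site, held both the largest rise and the largest fall among the called members. Sf3b1 encodes the largest SF3B subunit, which clamps the branch point adenosine. It stood at 96.9, 80.3 and 87.7 CPM in control mice and at 224, 240 and 155 CPM in ethanol mice. Ethanol mouse 3 was the lowest of its group and still above every control. Sf3b1 rose by 1.22 (SE 0.18, adjusted p = 0.00204). Sf3a1 encodes a scaffold subunit of SF3A. It was at 18.8, 18.4 and 17.6 CPM in control mice and at 3.86, 3.97 and 8.19 CPM in ethanol mice. The controls were tight, and ethanol mouse 3 lay nearest to them without reaching them. Sf3a1 fell by 1.77 (SE 0.30, adjusted p = 0.00354). The other SF3A subunits, Sf3a2 and Sf3a3, were not called (log2 fold changes of 0.03 and -0.34). Of the other SF3B subunits, Sf3b4 and Sf3b6 rose by 0.46 each, calls kept in 6 and 9 of 15 alternative analyses, though both lay below 0 with library size alone and with limma on FPKM, while Sf3b2, Sf3b3, Sf3b5 and Phf5a were not called. Within a library, Sf3b1 had 4.37 to 5.16 counts for each count of Sf3a1 in control mice and 58.1, 60.4 and 18.9 in ethanol mice, a ratio chosen after its values were seen.

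Rbm17 encodes SPF45, a U2-associated factor that can replace U2AF on some introns. It was at 21.9, 20.6 and 19.6 CPM in control mice and 43.5, 45.1 and 33.6 CPM in ethanol mice, with no overlap, and rose by 0.97 (SE 0.14, adjusted p = 0.00175). Snrpb2, which encodes the U2 B″ protein, rose by 0.54, and Smndc1, a Tudor-domain splicing factor, rose by 0.47, although both lay below 0 with library size alone and with limma on FPKM and kept their call in 9 of 15. Ddx46, the helicase Prp5 that opens U2 for branch site binding, was at 31.5 to 35.7 CPM in control mice and 21.0 to 25.3 CPM in ethanol mice, and fell by 0.56 (SE 0.12, adjusted p = 0.00933).

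The Sm and LSm proteins form rings of 7 around the snRNAs, the Sm ring on U1, U2, U4 and U5 and the LSm2-8 ring on U6. Of the 14 genes, 3 rose (21.4%) and 2 fell (14.3%), so the share of rises was that of all genes (21.5%) and the share of falls was below it (21.5%). Limma called 0 of 13 higher and 7 lower, in a fit that called 8.88% of all genes higher and 56.7% lower. Lsm8, the subunit found only in the nuclear ring, was at 2.35, 2.45 and 2.27 CPM in control mice and 5.35, 4.81 and 3.72 CPM in ethanol mice, and rose by 0.97 (SE 0.21, adjusted p = 0.00955). Lsm2, its neighbour in the ring, was at 5.84, 5.96 and 6.79 CPM in control mice and 1.42, 2.16 and 2.82 CPM in ethanol mice, and fell by 1.54 (SE 0.27, adjusted p = 0.00431). In neither gene did the groups overlap, so subunits of one ring moved apart. Lsm4 rose by 0.77 (adjusted p = 0.00481). Snrpb, which encodes SmB, rose by 0.52 (adjusted p = 0.00475) but lay at -0.15 with library size alone. Snrpd3, which encodes SmD3, fell by 0.55 (adjusted p = 0.0182), a call lost when any 1 of the 3 controls was left out. Its row overlaps Gucd1 on the other strand. The other 9 were not called, with values from -0.28 (Lsm6) to 0.75 (Lsm5).

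Of the 8 U1 genes, 1 rose and 0 fell, against 21.5% of all genes in each direction. DESeq2 called 0 lower (20.2% of all genes). EdgeR had 1 fall at an unadjusted p under 0.05, a threshold for which no share of all genes is given here. Limma on log2(FPKM + 1) called 5 of 8 lower and 0 higher, against 56.7% and 8.88% of all genes. Snrnp70, the U1-70K protein that binds the first stem of U1, was at 79.8, 77.9 and 77.1 CPM in control mice and 52.7, 45.8 and 75.0 CPM in ethanol mice. Ethanol mouse 3 was close to the controls and the other two were well below them, and the difference of -0.44 was not called (adjusted p = 0.0899). Snrpa and Snrpc, the other U1-specific proteins, stood at 0.20 and 0.40 and were not called. Snrpa was at -0.46 with library size alone (edgeR, adjusted p = 0.00813) and at -0.41 with limma on log2(FPKM + 1) (adjusted p = 0.00502), and both fits called it lower.

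**Figure D2:**
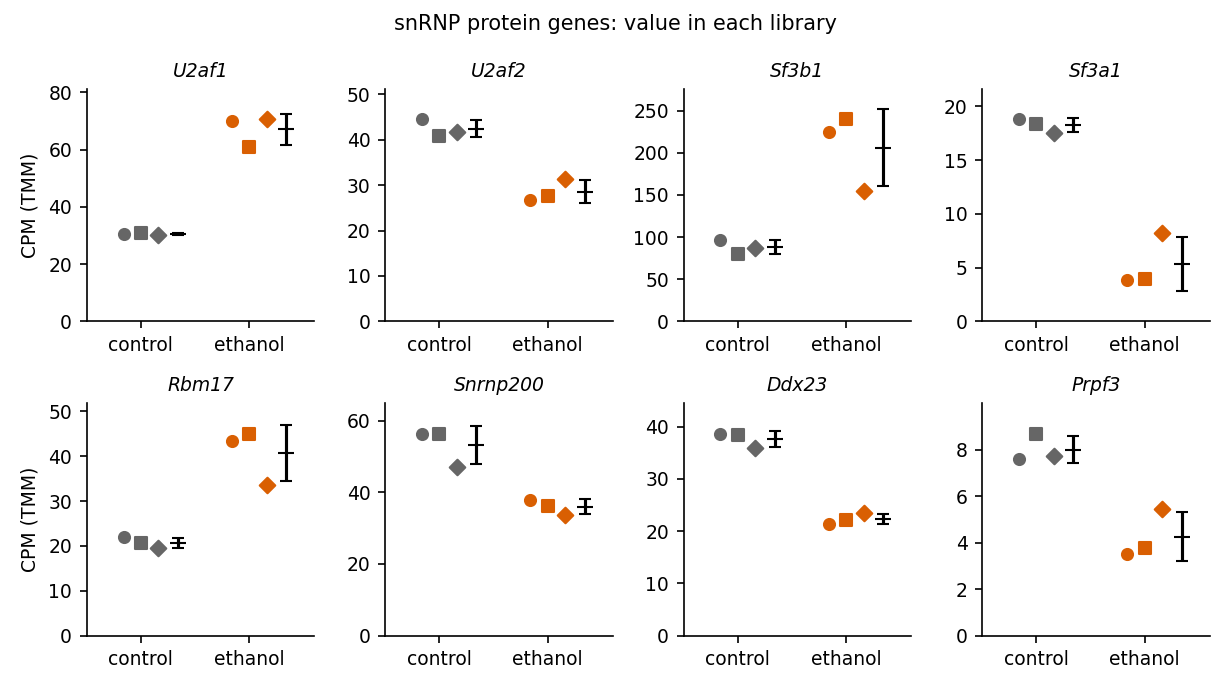
Each panel plots the CPM (vertical axis from 0, TMM-scaled) of 1 snRNP gene in the 3 control (grey) and 3 ethanol (orange) mice, with circle, square and diamond for replicates 1 to 3 and a black bar for the mean with 1 SD. U2af1 and U2af2 separate the groups in opposite directions, as do Sf3b1 and Sf3a1, and Snrnp200, Ddx23 and Prpf3 are lower in all 3 ethanol mice.

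The U4/U6.U5 tri-snRNP had the lowest median of the 4 snRNP classes. Of its 15 genes, 5 fell (33.3%) and 0 rose, against 21.5% of all genes in each direction. In 10 of 15 every ethanol mouse lay below every control mouse, against 31% of all genes tested. In 1 of 15 every ethanol mouse lay above every control (28% of all genes). At an unadjusted p under 0.05 edgeR had 1 rise and 9 falls, a threshold for which no share of all genes is given here. DESeq2 called 0 rises and 7 falls (18.0% and 20.2% of all genes). Limma called 0 rises and 11 falls among 14, in a fit that called 56.7% of all genes lower. Ddx23, the helicase that transfers the 5′ splice site from U1, was at 38.7, 38.3 and 35.8 CPM in control mice and 21.5, 22.1 and 23.4 CPM in ethanol mice. The groups were tight and far apart, and Ddx23 fell by 0.75 (SE 0.10, adjusted p = 0.00129). Snrnp200, the Brr2 helicase that unwinds U4 from U6, was at 56.3, 56.4 and 47.2 CPM in control mice and 37.9, 36.2 and 33.8 CPM in ethanol mice. It fell by 0.57 (SE 0.11, adjusted p = 0.00690) without overlap. Prpf3, which holds U4 and U6 together, was at 7.60, 8.68 and 7.71 CPM in control mice and 3.51, 3.78 and 5.46 CPM in ethanol mice, and fell by 0.91 (SE 0.21, adjusted p = 0.0120).

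Another pair of tri-snRNP genes passed the test less firmly. Prpf31, which binds U4 and bridges it to U5, fell by 0.60 (adjusted p = 0.0439), a call kept in 7 of 15 alternative analyses. Eftud2, the U5 GTPase Snu114, fell by 0.43 (adjusted p = 0.0263), a call kept in 10 of 15. Prpf8, the U5 protein at the heart of the active site, was at 164, 135 and 134 CPM in control mice and 115, 127 and 102 CPM in ethanol mice, and its difference of -0.33 was not called (adjusted p = 0.0764). Prpf4, Sart1 and Ppih had values of -0.88, -0.67 and -0.74 and were not called. Txnl4a, at -0.49, was not called and overlaps Naa12 on the same strand. The highest value of the class was that of Snu13, 0.43, which was not called (adjusted p = 0.0519).

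The tri-snRNP promoters were searched for short motifs because most of these genes were lower in ethanol mice. Windows run from 250 bases before to 50 bases after the annotated start, from RefSeq on GRCm38.p6, and motifs were searched on both strands. A window was found for 94 of the 131 tested members and for 10 of the 15 tri-snRNP genes. The core of an ETS family site, CCGGAAG, was present in 7 of these 10 (70.0%), in 22 of 45 snRNP genes (48.9%), in 41 of 94 members (43.6%), in 2079 of 11255 genes tested with a window (18.5%) and in 9.93% of all 27025 genes with a window. The motif was found on genes of either sign, since the windows of Snu13 (0.43) and Prpf6 (0.14) hold it and that of Prpf31 (-0.60) does not. Of the other motifs searched, the GC box was in 60%, the NRF1 site in 30% and the CCAAT box in 20% of the 10 tri-snRNP windows. Genes tested with a window had 64.7%, 10.4% and 42.8%. The E-box was in 10% (against 11.2%), and the TATA box and the cAMP response element in 0% (against 9.69% and 3.25%). The window of Snrnp200 (chr2:127208136-127208435, + strand) is printed as an example, with 1 ETS core and 2 GC boxes (GGGCGG on either strand, present in 64.7% of genes tested) in capitals. The motifs do not overlap. A match describes these letters and does not show that a factor binds.
Snrnp200: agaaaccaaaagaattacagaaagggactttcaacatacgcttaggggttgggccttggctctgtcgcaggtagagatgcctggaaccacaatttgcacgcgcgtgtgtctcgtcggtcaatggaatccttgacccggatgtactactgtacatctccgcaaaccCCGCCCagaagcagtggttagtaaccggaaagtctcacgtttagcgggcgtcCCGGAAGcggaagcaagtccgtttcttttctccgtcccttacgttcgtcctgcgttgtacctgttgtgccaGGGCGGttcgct

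SR proteins carry a domain rich in arginine and serine and bind exons to recruit U1 and U2. The 11 genes split, with 2 rises, 3 falls and 6 not called, which is 18.2% and 27.3% against 21.5% each over all genes. Limma on log2(FPKM + 1) called 0 higher and 9 lower, against 8.88% and 56.7% of all genes. Srsf6 showed the largest fall of the class. It was at 95.2, 101 and 100 CPM in control mice and 24.8, 24.5 and 57.6 CPM in ethanol mice. Ethanol mouse 3 stood well above the other two and still below every control. Srsf6 fell by 1.47 (SE 0.33, adjusted p = 0.0111). Srsf1, long known as SF2/ASF, was at 83.2, 78.6 and 80.3 CPM in control mice and 25.6, 28.8 and 53.0 CPM in ethanol mice, again with ethanol mouse 3 nearest to the controls. It fell by 1.17 (SE 0.27, adjusted p = 0.0112). Both calls were kept in 15 of 15 alternative analyses. Srsf10, an SR-like protein known as a repressor when dephosphorylated, fell by 0.75 (adjusted p = 0.0240), from 23.0 to 25.3 CPM in control mice to 11.3 to 19.1 CPM in ethanol mice, with the call kept in 9 of 15.

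Srsf4 and Srsf3 moved the other way. Srsf4, also called SRp75, was at 27.2, 30.6 and 31.7 CPM in control mice and 65.8, 60.8 and 48.0 CPM in ethanol mice, with no overlap. It rose by 0.96 (SE 0.14, adjusted p = 0.00212). Its row overlaps A930004J17Rik on the same strand, so some of its counts may belong to that row. Srsf3, the smallest SR protein, was at 51.2, 51.2 and 52.1 CPM in control mice and 73.2, 66.5 and 102 CPM in ethanol mice, with ethanol mouse 3 the highest. It rose by 0.64 (SE 0.17, adjusted p = 0.0179), but lay at -0.03 with library size alone, and its call was kept in 9 of 15 alternative analyses. Within a library the Srsf3 to Srsf1 count ratio was 0.616 to 0.651 in control mice and 2.86, 2.31 and 1.92 in ethanol mice, and the Srsf4 to Srsf6 ratio was 0.285 to 0.317 and 2.65, 2.49 and 0.833. These pairs were chosen after their values were seen.

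The other 6 SR genes were not called. Srsf2 was at 92.2, 93.0 and 97.4 CPM in control mice and 47.0, 59.1 and 88.6 CPM in ethanol mice, a wide spread with a difference of -0.54 (adjusted p = 0.0849). Srsf5, the most abundant SR transcript here by FPKM, had a difference of -0.03, with overlapping groups of 127 to 151 and 116 to 156 CPM. Tra2b, Srsf9, Srsf7 and Tra2a had differences of -0.03, -0.17, -0.26 and -0.38.

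Annotated decay isoforms were common among SR genes. By the transcript types in the deposited table, 10 of the 11 (90.9%) have an isoform marked as a target of nonsense-mediated decay. The shares were 87.5% of U1 genes, 50% of tested hnRNP genes, 33.6% of tested members and 18.2% of all genes tested. The trait is thus not particular to SR genes. An isoform with a retained intron is annotated for 71.8% of tested members and 45.9% of all genes tested. Counts per gene add all isoforms together, so these data do not separate productive from decay-targeted SR transcripts.

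Promoter windows of the 3 SR genes with the largest changes in either direction are printed to compare genes that moved apart. The GC box was present in 10 of 11 SR windows (90.9%) against 64.7% of genes tested with a window, and the ETS core in 3 of 11 (27.3%) against 18.5%. Capitals mark the motifs found among the GC box, the ETS core, the CCAAT box (CCAAT, in 42.8% of genes tested), the TATA box (TATAAA, in 9.69%), the E-box (CACGTG, in 11.2%), the cAMP response element (TGACGTCA, in 3.25%) and the NRF1 site (in 10.4%). Srsf6 (chr2:162931258-162931557, + strand) holds 2 GC boxes, Srsf1 (chr11:88047123-88047422, + strand) holds 1 GC box and 1 CCAAT box, and Srsf4 (chr4:131873387-131873686, + strand, the first of 3 windows) holds 4 GC boxes, a pair of them side by side, and 1 ETS core. GC boxes thus occur in the gene that rose and in those that fell.
Srsf6: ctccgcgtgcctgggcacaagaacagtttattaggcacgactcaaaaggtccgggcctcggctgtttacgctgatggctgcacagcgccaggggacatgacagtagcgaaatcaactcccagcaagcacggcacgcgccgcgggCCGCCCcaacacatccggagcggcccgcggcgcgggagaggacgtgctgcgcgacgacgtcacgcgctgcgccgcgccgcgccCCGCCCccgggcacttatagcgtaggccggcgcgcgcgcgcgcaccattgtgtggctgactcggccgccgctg
Srsf1: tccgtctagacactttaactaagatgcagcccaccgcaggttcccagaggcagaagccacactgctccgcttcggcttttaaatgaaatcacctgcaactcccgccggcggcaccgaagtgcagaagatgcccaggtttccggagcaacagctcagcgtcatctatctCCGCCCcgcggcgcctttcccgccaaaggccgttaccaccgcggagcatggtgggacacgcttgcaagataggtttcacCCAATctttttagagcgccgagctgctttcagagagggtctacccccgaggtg
Srsf4: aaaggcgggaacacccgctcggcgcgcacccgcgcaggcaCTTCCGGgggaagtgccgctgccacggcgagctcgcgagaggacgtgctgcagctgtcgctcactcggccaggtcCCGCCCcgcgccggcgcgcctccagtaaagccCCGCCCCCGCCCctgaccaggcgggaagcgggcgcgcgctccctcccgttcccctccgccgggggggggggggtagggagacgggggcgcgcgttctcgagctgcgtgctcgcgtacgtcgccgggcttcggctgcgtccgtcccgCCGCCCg

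hnRNP proteins coat nascent transcripts and often block splice sites. Of the 8 tested genes, 0 rose and 4 fell (50.0%, against 21.5% of all genes). At an unadjusted p under 0.05 edgeR had 0 rises and 5 falls, a threshold for which no share of all genes is given here. DESeq2 called 0 and 5 (18.0% and 20.2% of all genes), and limma on log2(FPKM + 1) 0 and 8 (8.88% and 56.7%). Hnrnpu, the scaffold attachment factor SAF-A, was at 179, 154 and 157 CPM in control mice and 88.4, 86.3 and 88.2 CPM in ethanol mice. Ethanol mice were nearly identical and far below the controls, and Hnrnpu fell by 0.90 (SE 0.10, adjusted p = 0.000772). Its row overlaps Cox20 on the other strand. Hnrnpa3, a relative of hnRNP A1, was at 61.4, 60.8 and 59.0 CPM in control mice and 34.2, 35.6 and 38.8 CPM in ethanol mice, and fell by 0.74 (SE 0.10, adjusted p = 0.00134). Both calls were kept in 15 of 15 alternative analyses.

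Hnrnpm, known for its part in switching epithelial splicing patterns, was at 55.0 to 64.1 CPM in control mice and 32.8 to 48.1 CPM in ethanol mice. It fell by 0.59 (adjusted p = 0.0205), a call kept in 11 of 15, and its row overlaps Marchf2 on the same strand. Pcbp1, a poly(C)-binding protein, fell by 0.26 (adjusted p = 0.0479), from 112 to 118 CPM to 95.4 to 96.8 CPM, a call kept in 7 of 15. Rbmx, the X-linked hnRNP G, had a larger difference of -1.09 but was not called (adjusted p = 0.0639). Ethanol mouse 3 stood at 9.54 CPM beside 3.54 and 3.71, and without it the log2 fold change of Rbmx was -1.70, which edgeR called (adjusted p = 0.000301). Hnrnpk and Hnrnpc had differences of -0.09 and -0.10 and Hnrnpa1 one of 0.13, none of them called. Hnrnpa1 turned to -0.53 with library size alone (edgeR, adjusted p = 0.00556) and to -0.49 with limma (adjusted p = 0.0037), and both fits called it lower.

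**Figure D3:**
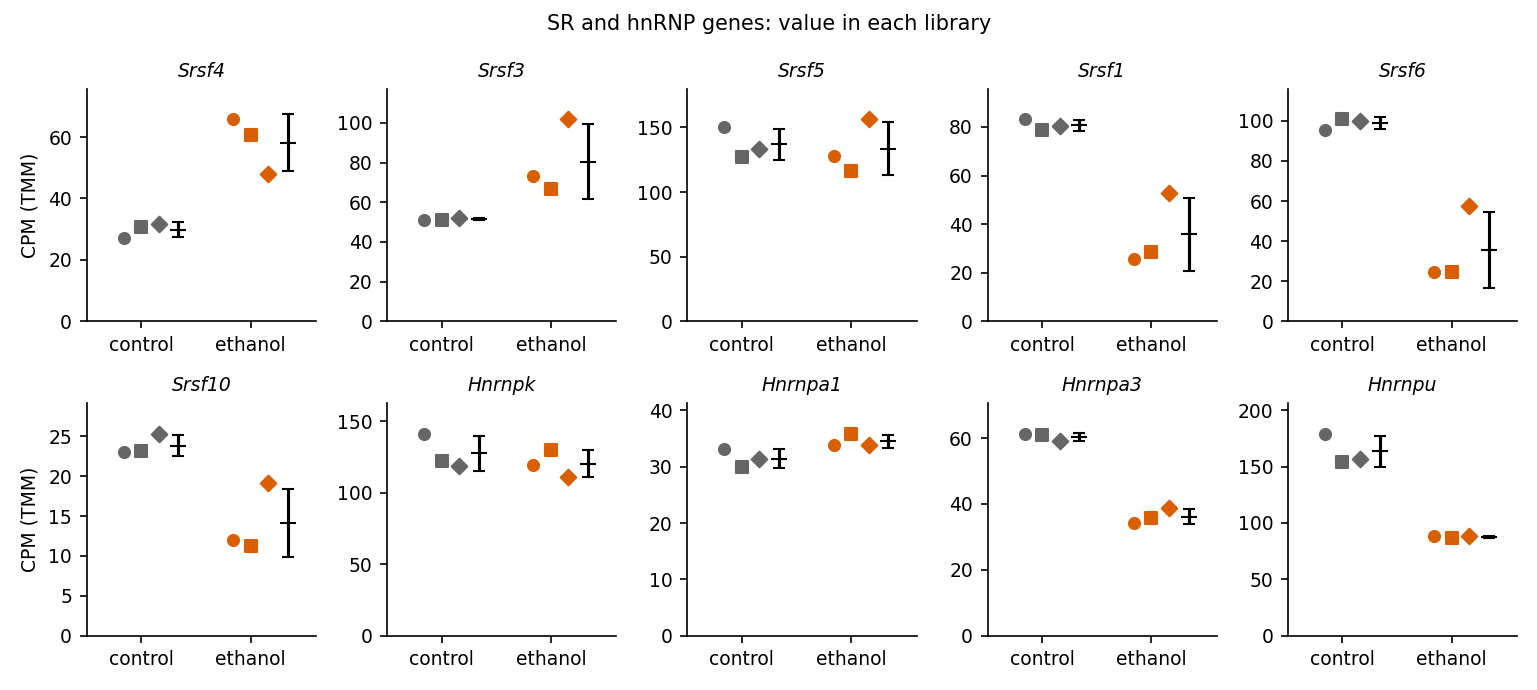
Each panel plots the CPM (vertical axis from 0, TMM-scaled) of 1 SR or hnRNP gene in the 3 control (grey) and 3 ethanol (orange) mice, with circle, square and diamond for replicates 1 to 3 and a black bar for the mean with 1 SD. Srsf4 and Srsf3 are higher in all 3 ethanol mice (Srsf3 at -0.03 on the log2 scale with library size alone), Srsf1, Srsf6, Srsf10, Hnrnpa3 and Hnrnpu are lower, and Srsf5, Hnrnpk and Hnrnpa1 were not called.

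The Prp19 complex and its partners stabilise the catalytic spliceosome. Of 19 genes, 7 rose (36.8%) and 3 fell (15.8%), against 21.5% of all genes in each direction. DESeq2 called 6 and 4, and limma on log2(FPKM + 1) 0 and 11 (8.88% and 56.7% of all genes). The 3 falls were DEGs. Ppil1, a cyclophilin, was at 9.10, 9.88 and 8.28 CPM in control mice and 1.84, 1.85 and 5.22 CPM in ethanol mice, and fell by 1.61 (adjusted p = 0.0187). That call was kept in 2 of the 6 analyses that leave out a library, and lost without ethanol replicate 1 and without each control. Its row overlaps Gm50068 on the other strand. Aqr, the intron-binding helicase Aquarius, was at 20.6, 17.2 and 16.3 CPM in control mice and 7.14, 6.72 and 9.42 CPM in ethanol mice, and fell by 1.22 (adjusted p = 0.00193). Cdc5l, a core Prp19 complex protein, was at 13.0, 12.6 and 11.4 CPM in control mice and 3.94, 4.94 and 7.99 CPM in ethanol mice, and fell by 1.13 (adjusted p = 0.0122). In these 3 genes no ethanol mouse reached the controls, and ethanol mouse 3 was the highest of its group.

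The rises of this class were smaller. Wbp11, which binds WW-domain proteins, was at 20.4 to 22.5 CPM in control mice and 37.1 to 44.6 CPM in ethanol mice, and rose by 0.96 (SE 0.11, adjusted p = 0.000867). Xab2, the Syf1 scaffold, rose by 0.69 (adjusted p = 0.0132), a call kept in 10 of 15 alternative analyses. Bcas2, Ppie, Syf2, Bud31 and Cwc15 rose by 0.66, 0.60, 0.55, 0.38 and 0.32, and all 5 lay below 0 with library size alone and with limma on FPKM. The calls of Bcas2 and Syf2 were kept in 12 of 15 alternative analyses, that of Ppie in 7, and those of Bud31 and Cwc15 in 3 each, being lost with DESeq2 among others. Prpf19 itself, the ubiquitin ligase of the complex, was not called (80.7 to 83.9 CPM against 66.8 to 74.8 CPM, a difference of -0.22, adjusted p = 0.0953).

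The exon junction complex (EJC), the TREX export complex and the cap-binding complex act around splicing. Of 13 tested genes, 2 rose and 2 fell (15.4% each, against 21.5% each over all genes), and limma called 0 higher and 8 lower (8.88% and 56.7% of all genes). Ncbp2, the small subunit of the nuclear cap-binding complex, was at 14.6, 15.1 and 12.1 CPM in control mice and 4.24, 5.15 and 4.78 CPM in ethanol mice. The groups were far apart, and Ncbp2 fell by 1.56 (SE 0.16, adjusted p = 0.000483) with the call kept in 15 of 15 alternative analyses. Its partner Ncbp1 was not called (difference -0.005). Magoh, an EJC core protein, rose by 0.72 (adjusted p = 0.00698), while Eif4a3, the EJC helicase, was not called (0.15) and was called lower with library size alone (-0.52, edgeR, adjusted p = 0.0142) and with limma (-0.48, adjusted p = 0.0104). Ddx39b, the TREX helicase UAP56, rose by 0.63 (adjusted p = 0.00611) with -0.04 under library size alone, and Acin1 fell by 0.45 (adjusted p = 0.0350), a call kept in 7 of 15 and in 1 of the 6 analyses that leave out a library. The rows of Ddx39b and Acin1 overlap annotated microRNA genes on the same strand.

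Of the 9 helicases and step factors, which drive the chemical steps and release the product, 0 were called by edgeR (21.5% of all genes in each direction), with values from -0.30 (Dhx16) to 0.32 (Zmat2) and a median of -0.04. At an unadjusted p under 0.05 edgeR had 1 rise and 0 falls, a threshold for which no share of all genes is given here. DESeq2 called 0, and limma on log2(FPKM + 1) called 9 of 9 lower, in a fit that called 56.7% of all genes lower. The 7 tested Cdc5l-related genes were not called either, at control levels of at most 0.469 CPM and with a median difference of -1.34. DESeq2 called 0 of them, and edgeR had 4 lower at an unadjusted p under 0.05, again without a share of all genes. The Cdc5l-related genes resemble Cdc5l by name, and reads may be shared between them. Of the 4 members left unclassed, Rp9 rose by 0.78 (adjusted p = 0.0166, kept in 9 of 15), Naa12 rose by 0.42 (adjusted p = 0.0357, kept in 6 of 15 and below 0 with library size alone and with limma on FPKM), and Thoc2l was not called (-0.37).

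Ethanol mouse 3 stood nearer to the controls than the other 2 ethanol mice for most falls. It was the ethanol library nearest to the control mean for 18 of the 22 genes that fell and for 9 of the 24 that rose. The median log2 ratio to the control mean over the tri-snRNP genes was -0.47, -0.51 and -0.27 in ethanol mice 1 to 3, and over hnRNP genes -0.54, -0.46 and -0.28. Over SR genes it was -0.29, -0.34 and -0.04, so the SR median was near that of the controls in ethanol mouse 3. Over U2 genes it was 0.17, 0.22 and 0.25 and over U1 genes 0.25, 0.19 and 0.20, while all genes tested stood at -0.07, -0.07 and -0.05. Without ethanol mouse 3, all 22 falls and all 24 rises kept their call.

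**Figure D4:**
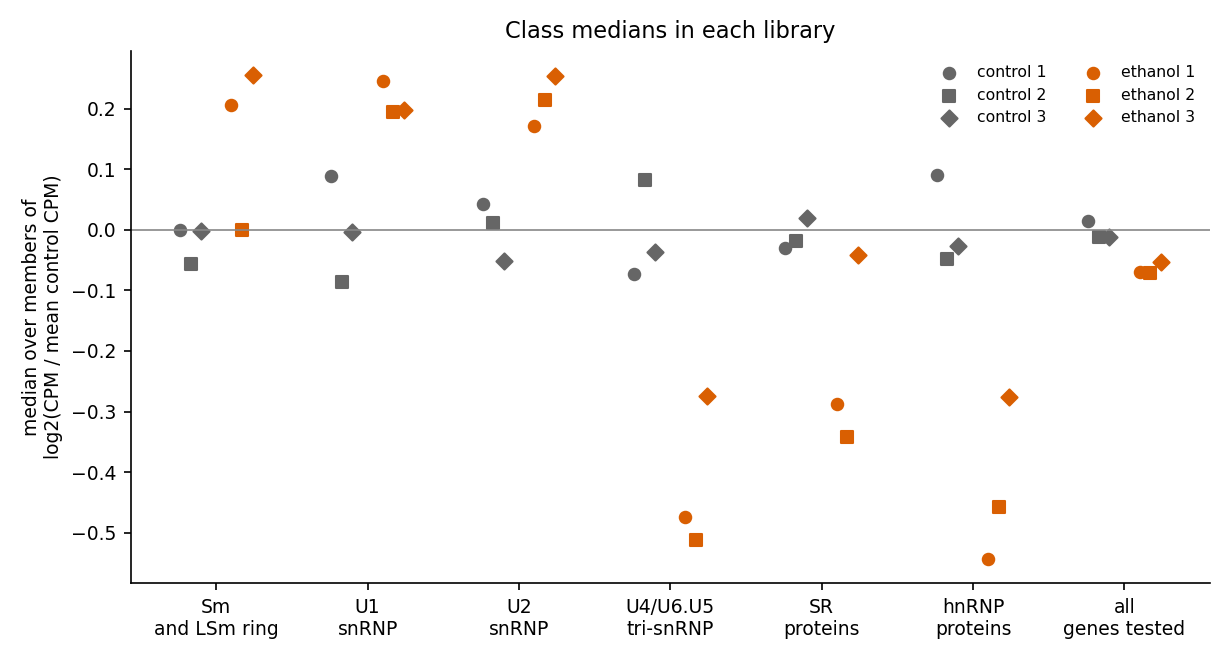
The vertical axis is the median over the members of a class of log2(CPM over mean control CPM), with an offset of 0.05 CPM, and each symbol is 1 library (grey control, orange ethanol). Ethanol mice 1 to 3 stand at -0.47, -0.51 and -0.27 for the tri-snRNP and at 0.17, 0.22 and 0.25 for U2, while all genes tested lie between -0.07 and 0.02 in the 6 libraries.

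Fold changes followed transcript length across all genes. Split by length into 10 equal groups, the genes tested had a median log2 fold change of 0.48 in the shortest group and of -0.20 to -0.17 in the 4 longest. Tested members had a median length of 4122 bases, near the 4059 bases of all genes tested, but the classes differed, with 2090.5 bases for the Sm and LSm ring, 5838 bases for the tri-snRNP and 7576.5 bases for U1. With each library's trend with length removed, 38 members rose (29.0%, against 23.9% of all genes in that fit), 17 fell (13.0%, against 18.0%) and 6 were DEGs upward (4.58%, against 11.4%). In that fit 23 of the 24 rises and 17 of the 22 falls kept their call. The tri-snRNP median relative to all genes was then -0.34 in place of -0.44. That of the Sm and LSm ring was 0.17 in place of 0.26, and that of U2 was 0.32 in place of 0.21. Prpf31, Eftud2, Srsf10, Hnrnpm and Acin1 are the falls that lost their call. What sets this trend was not tested.

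**Figure D5:**
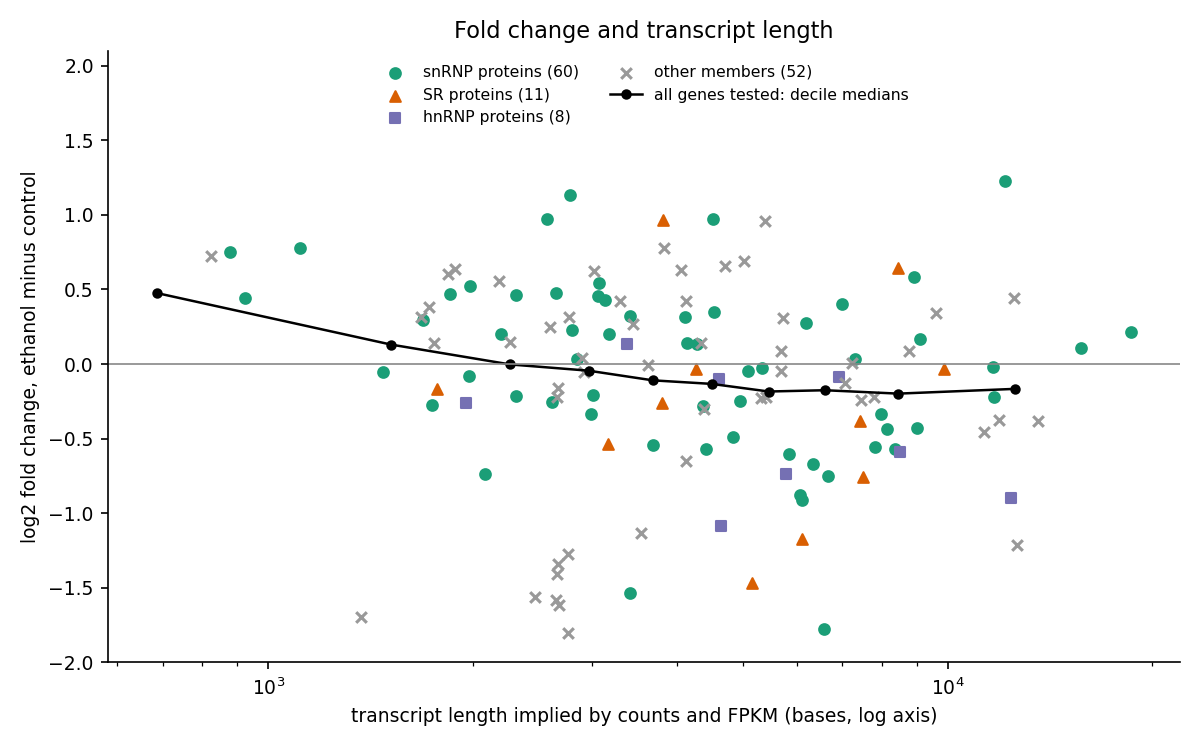
The horizontal axis is the transcript length implied by the counts and FPKM (bases, log axis) and the vertical axis the log2 fold change of ethanol over control with TMM scaling, where symbols mark tested members by class and the black line joins the medians of 10 equal length groups of all genes tested. The line falls from 0.48 to about -0.2, and Sf3b1 (1.22) lies far above it and Sf3a1 (-1.77) far below it.

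Genes that act on the spliceosome from outside the pathway were taken from lists of known members. The SR kinases phosphorylate SR proteins and so set their place in the nucleus. Of 8 such kinases, 6 fell (75.0%) and 1 rose (12.5%), against 21.5% of all genes in each direction. Srpk2 was at 18.0, 15.2 and 16.9 CPM in control mice and 7.30, 6.60 and 6.54 CPM in ethanol mice, and fell by 1.29 (adjusted p = 0.000488). Prpf4b, Srpk1 and Clk3 fell by 1.04, 0.93 and 0.80. These 4 kinases were named by a rule that required no overlap of the groups in CPM, which 31% of all genes tested met with ethanol lower. Dyrk1a, a kinase of nuclear speckles, was at 13.7 to 16.7 CPM in control mice and 27.8 to 33.6 CPM in ethanol mice, and rose by 0.99 (adjusted p = 0.00122). By FPKM its groups lay closer, at 1.95 to 2.39 in control mice and 2.41 to 2.95 in ethanol mice. The SR kinase median was -0.70.

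The snRNP assembly list, which covers the SMN complex and the methylation of Sm proteins, held 4 rises and 4 falls among 17 genes (23.5% each, near the 21.5% of all genes). Wdr77, the partner of the Sm methyltransferase Prmt5, was at 21.4 ± 1.25 CPM in control mice and 7.77 ± 2.85 CPM in ethanol mice (SD, n = 3), with ethanol mouse 2 the highest of its group and below every control, and fell by 1.46 (adjusted p = 0.0036). Gemin6 and Prmt5 fell by 0.88 and 0.43. Gemin2, Strap, Phax and Clns1a rose by 0.78, 0.58, 0.53 and 0.48, the last 3 of them below 0 with library size alone and with limma on FPKM. By FPKM the groups of Gemin2 overlapped, at 3.23 to 3.83 in ethanol mice and 3.02 to 3.48 in control mice. Gemin4 had no count in any ethanol mouse and 4.16 to 6.24 CPM in control mice, so its fall is given without a fold. Its row lies within that of Glod4 on the same strand. The minor spliceosome list held 1 rise (Zcrb1, 0.73) and 1 fall (Snrnp48, -0.58) among 10 genes, each below the share over all genes.

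Splicing regulators outside the pathway held 15 rises and 13 falls among 47 genes (31.9% and 27.7%, against 21.5% each over all genes), with a median of -0.12. Cirbp and Rbm3, RNA-binding proteins known to respond to cold, had the largest rises of the list. Cirbp was at 9.87, 9.83 and 8.04 CPM in control mice and 37.4, 33.2 and 32.7 CPM in ethanol mice, and rose by 1.90 (adjusted p = 0.000142). Rbm3 was at 15.7 to 17.6 CPM in control mice and 47.5 to 68.3 CPM in ethanol mice, and rose by 1.75 (adjusted p = 0.000348). Mbnl2, a muscleblind splicing regulator, and Ptbp2, a relative of the polypyrimidine tract-binding protein, rose by 1.46 and 1.21. By FPKM Ptbp2 was at 1.65, 1.71 and 0.99 in ethanol mice 1 to 3 and at 0.91 to 1.09 in control mice. Hnrnph3, Rbm5, Rbm10 and Hnrnpul2 fell by 1.17, 1.06, 1.05 and 0.95. These 8 genes were named by a rule that required no overlap of the groups in CPM, which 59% of all genes tested met in either direction. Of the 14 genes of this list with an Hnrnp symbol, 3 rose and 4 fell, where 21.5% of all genes were called in each direction. Both directions thus occurred among hnRNP genes outside the pathway rows. Those that rose were Hnrnpdl (1.07, adjusted p = 0.00141), Hnrnpa0 (0.52) and Hnrnpd (0.48), named after their values were seen. With library size alone Hnrnpdl was at 0.40 and Hnrnpa0 and Hnrnpd were at -0.15 and -0.19.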

How the data were processed

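Total RNA was extracted from the livers of 3 ethanol and 3 control mice, and libraries made from it were sequenced as paired-end reads. The authors removed adaptor, low-quality and ambiguous reads and aligned the rest. The aligner, the counting software and the use of strand are not given in the sources used here, and the submitters' processing notes name GRCm38 and mm10. For each gene the authors deposited a whole-number count that was not normalized. The authors also deposited an FPKM value per gene and library, scaled to transcript length and library size. A further 1 count column belongs to no sample of the labels and was not used.

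Counts were fitted for all genes in edgeR 4.0.16 (R 4.3.3) with filterByExpr, TMM factors, no covariates, a two-sided quasi-likelihood test and Benjamini-Hochberg adjustment over 16717 genes. The threshold was an adjusted p of 0.05, and DEGs also had a log2 fold change over 1 in size. The common biological coefficient of variation was 0.299. With 60514417 to 74210869 counts per library, precision is limited by the 3 mice per group except in genes of very few counts. Transcript length is that implied by count and FPKM. No library was a duplicate of another of its group (chi-square over degrees of freedom from 54.3 to 550). The fits were tested on simulated data.

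The members, classes and lists were chosen with earlier results of these data known. Named genes are every SR and hnRNP member, up to 5 of the largest rises and falls without overlap in each other class, all DEGs and 10 landmarks. In each list outside the pathway they are up to 4 in each direction, also without overlap. Some members under this rule are not reported here. Pairs of members given as count ratios, members named as not called and overlapping neighbours were chosen after values were seen. Alternatives were other scalings, no filter, DESeq2 1.42.0, limma 3.58.1 on log2(FPKM + 1) and log2(FPKM + 0.1) for genes whose mean FPKM reached 0.5, removal of the length trend, the replicate number as a block, and each library left out in turn.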

Additional observations from a re-analysis of the deposited data

How the results depend on the processing

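With library size alone, with limma on log2(FPKM + 1) and with limma on log2(FPKM + 0.1), the median of all genes was -0.71, -0.43 and -0.60, the count of rises was 2, 1 and 1, that of falls 84, 82 and 82, that of DEGs upward 0, 0 and 0 and that of DEGs downward 37, 18 and 32. Falls were 64.1%, 67.2% and 67.2% of the members tested, against 48.3%, 56.7% and 56.2% of all genes. Rises were 1.53%, 0.820% and 0.820%, against 7.39%, 8.88% and 8.90%. DEGs downward were 28.2%, 14.8% and 26.2%, against 32.2%, 14.8% and 30.8%. Of all genes 5.06%, 3.52% and 4.93% were DEGs upward. Some genes above 0 with TMM then lay below 0. With library size alone the log2 fold changes were -0.0053 for Bcas2, -0.19 for Clns1a, -0.041 for Ddx39b, -0.52 for Eif4a3, -0.53 for Hnrnpa1, -0.14 for Phax, -0.066 for Ppie, -0.19 for Smndc1, -0.46 for Snrpa, -0.15 for Snrpb, -0.13 for Snrpb2, -0.030 for Srsf3, -0.086 for Strap and -0.11 for Syf2. With limma on log2(FPKM + 1) they were -0.018 for Bcas2, -0.15 for Clns1a, -0.045 for Ddx39b, -0.48 for Eif4a3, -0.49 for Hnrnpa1, -0.13 for Phax, -0.062 for Ppie, -0.16 for Smndc1, -0.41 for Snrpa, -0.15 for Snrpb, -0.097 for Snrpb2, -0.36 for Snrpd1, -0.37 for Snrpd2, -0.044 for Srsf3, -0.094 for Strap and -0.11 for Syf2. With limma on log2(FPKM + 0.1) they were -0.025 for Bcas2, -0.18 for Clns1a, -0.048 for Ddx39b, -0.52 for Eif4a3, -0.53 for Hnrnpa1, -0.15 for Phax, -0.075 for Ppie, -0.19 for Smndc1, -0.46 for Snrpa, -0.15 for Snrpb, -0.12 for Snrpb2, -0.47 for Snrpd1, -0.45 for Snrpd2, -0.051 for Srsf3, -0.098 for Strap and -0.11 for Syf2. Upper quartile factors, median ratio factors and no filter left the 4 counts within 1.5 times. DESeq2 gave 23 rises and 27 falls (18.0% and 20.2% of all genes). With the length trend removed, 38 genes rose (29.0%, against 23.9%) and 6 were DEGs upward (4.58%, against 11.4%).

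Class medians relative to all genes moved with limma and with the length trend removed. For limma with pseudocounts of 1 and 0.1 they were -0.045 and -0.034 for snRNP proteins (0.075 with edgeR), 0.071 and 0.122 for the Sm and LSm ring (0.259), 0.096 and 0.102 for U2 (0.209), -0.377 and -0.372 for SR (-0.219) and -0.566 and -0.494 for hnRNP proteins (-0.380). With the length trend removed the ring was at 0.165 and U2 at 0.321.

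With each library left out in turn, rises ranged from 12 to 29 and falls from 13 to 37. DEGs upward ranged from 2 to 6 and DEGs downward from 5 to 13. Rises were 9.09% to 21.97% of members, against 14.5% to 24.7% of all genes. Falls were 9.85% to 28.03%, against 13.5% to 27.39%. DEGs upward were 1.52% to 4.55%, against 8.57% to 10.9%. DEGs downward were 3.82% to 9.85%, against 9.88% to 16.5%. The shares of all genes thus also moved between these fits. Relative medians ranged from -0.0025 to 0.126 for snRNP proteins, from 0.183 to 0.377 for the ring, from 0.118 to 0.312 for U2, from -0.465 to -0.333 for the tri-snRNP, from -0.255 to -0.026 for SR and from -0.422 to -0.299 for hnRNP proteins. The lowest snRNP value came without ethanol replicate 3, the SR value of -0.026 without ethanol replicate 2 and the lowest U2 value without control replicate 3. Of the 24 rises 12, and of the 22 falls 13, were called in every leave-out.

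The replicate numbers do not pair the mice. Deviations of same-numbered libraries correlated at -0.035, -0.021 and -0.017. With the replicate number as a block 18 members rose and 19 fell (13.7% and 14.5%, against 17.3% of all genes in each direction). In that fit 2 were DEGs upward and 9 downward (1.53% and 6.87%, against 9.08% and 12.0%). The causes of these differences were not tested.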
